A study of Mus musculus with 2 samples.

Results

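Transcripts of 9 chemokine ligand genes were measured in mouse CD8+ T cells before and after activation. The genes are Ccl1, Ccl3, Ccl4, Ccl5, Ccl6, Ccl9, Ccl22, Cxcl10 and Xcl1, the ligands grouped here as products of CD8+ T cells. They were found as every probe set whose platform annotation names that gene alone, which gave 11 probe sets of 45037 and 9 genes of 18193. Ccl6 and Ccl9 had 2 probe sets each and the other members 1 each, and 0 further probe sets named a member together with another gene. Expression had been measured on 2 Affymetrix Mouse Genome 430 2.0 arrays. The first array held RNA of purified naive CD8+ T cells, and the second RNA of proliferating CD8+ T cells taken 72 h after activation. Both came from pmel-1 mice, a strain with a transgenic T cell receptor that recognises a melanocyte antigen, so most of the CD8+ T cells share a single specificity. The stimulus, the purification method, the organ and the age of the mice are not stated in the labels or the design text. Each array carried RNA pooled from 4 independent experiments, so each group is a single measurement, and differences are given as sizes without error or test. The study's title concerns imaging of immune activation by positron emission tomography, and the arrays set resting against dividing T cells.

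Chemokines are small secreted proteins that guide leukocytes along gradients by way of G protein-coupled receptors, and they are classed as CC, CXC or C chemokines by the spacing of their first cysteines. CD8+ T cells that meet antigen release the inflammatory chemokines CCL3, CCL4 and CCL5, which draw in other leukocytes, and XCL1, which draws in cross-presenting dendritic cells through XCR1. CCL22 and CXCL10 are known as products of dendritic cells, macrophages and stromal cells too, and CCL6 and CCL9 are best known from the myeloid lineage. CCL5 message is typical of memory and innate-like T cells and of NK cells, where it can be held ready for release.

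RefSeq promoter sequences of build GRCm38.p6 matched 7 of the 9 members by symbol, and Ccl4 and Ccl5 had no entry. The 250 bases before the start site are shown for 4 of them, chosen because their array values went in different ways: Ccl3 (higher in activated cells), Xcl1 (close on both arrays), and Ccl22 and Cxcl10 (low or lower in activated cells). Capitals mark letters that match any of 7 motifs on either strand: an NFAT core (GGAAA), a kappaB motif (GGGNNTTCC), an AP-1 motif (TGANTCA), an interferon regulatory factor motif (AANNGAAA), a RUNX core (TGTGGT), a cyclic AMP response motif (TGACGTCA) and an E-box (CACGTG). The kappaB motif used here is a word of 9 letters, and kappaB sites of other lengths were not searched for or marked as such. The NFAT core can overlap the kappaB and interferon regulatory factor motifs, and overlapping matches run together. All are given 5′ to 3′ on the strand of the gene.
Ccl3 (chr11:83649379-83649628, minus strand): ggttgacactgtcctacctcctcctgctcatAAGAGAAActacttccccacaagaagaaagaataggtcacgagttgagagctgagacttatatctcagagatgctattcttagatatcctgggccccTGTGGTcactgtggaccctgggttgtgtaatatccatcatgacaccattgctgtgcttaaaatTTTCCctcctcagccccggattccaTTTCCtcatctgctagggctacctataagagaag
Xcl1 (chr1:164935523-164935772, minus strand): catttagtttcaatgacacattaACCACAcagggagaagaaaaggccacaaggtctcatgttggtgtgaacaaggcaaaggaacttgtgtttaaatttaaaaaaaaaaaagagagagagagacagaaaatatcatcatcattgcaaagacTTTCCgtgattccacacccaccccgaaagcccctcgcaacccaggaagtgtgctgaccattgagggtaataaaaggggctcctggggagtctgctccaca
Ccl22 (chr8:94745434-94745683, plus strand): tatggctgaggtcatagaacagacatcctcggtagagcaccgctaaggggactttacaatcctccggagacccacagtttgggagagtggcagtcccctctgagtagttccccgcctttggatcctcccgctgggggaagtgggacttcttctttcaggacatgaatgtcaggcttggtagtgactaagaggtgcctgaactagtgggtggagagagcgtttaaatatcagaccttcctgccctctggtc
Cxcl10 (chr5:92348890-92349139, minus strand): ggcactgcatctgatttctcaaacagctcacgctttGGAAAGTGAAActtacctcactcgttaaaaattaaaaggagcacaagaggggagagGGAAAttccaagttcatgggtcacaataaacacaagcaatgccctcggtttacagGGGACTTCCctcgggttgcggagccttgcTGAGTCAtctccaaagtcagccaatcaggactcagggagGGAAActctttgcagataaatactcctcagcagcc

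With the last base before the start site counted as -1, the Ccl3 window held 2 NFAT cores on the opposite strand, at -59 to -55 and at -34 to -30, and on the strand of the gene a RUNX core at -122 to -117 and an interferon regulatory factor motif at -219 to -212. The Xcl1 window held 1 NFAT core, at -100 to -96, and 1 RUNX core, at -227 to -222, both on the opposite strand. The Cxcl10 window held matches to 4 of the 7 motifs, all on the strand of the gene. These were an interferon regulatory factor motif at -211 to -204, a kappaB motif at -103 to -95, an AP-1 motif at -74 to -68 and 3 NFAT cores. The Ccl22 window matched 0 of the 7. Over all 32851 promoter windows of this length, 55.6% held the NFAT core, 21.3% the interferon regulatory factor motif, 14.0% the RUNX core, 6.75% the AP-1 motif, 6.02% the E-box, 4.98% the kappaB motif and 1.55% the cyclic AMP motif. Of the 7 member windows, 5 held the NFAT core, 2 each the interferon regulatory factor, RUNX, AP-1 and kappaB motifs, and 0 the E-box or the cyclic AMP motif. A match describes letters and no binding was measured.

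The chemokine ligands did not move as a group. Ccl3 and Ccl4 were far higher in activated cells, Ccl5 and Ccl22 were lower, Xcl1 was above 100 on both arrays and not called, and the other 4 members lay near or under 100, the level below which intensities were not compared. A gene was called higher or lower when the ratio of its arrays was at least 1.4, with intensities under 100 raised to 100, and the deposited intensities differed by more than 100. By this size rule 2 of 9 members were higher, against 12.8% of all genes, and 2 of 9 were lower, against 11.1% of all genes. Among genes reaching 100 on either array, the higher and lower shares were 23.7% and 20.6%, and the median log2 ratio was 0.01. With so few members these shares are not read as departing from the background. The median log2 ratio of the 9 was 0.00, as was that of all genes, because genes under 100 on both arrays count as 0. Ccl1 and Ccl6 were such genes, Ccl3, Ccl4, Ccl9, Ccl22 and Cxcl10 reached 100 on 1 array only, and Ccl5 and Xcl1 reached it on both.

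**Figure D1:**
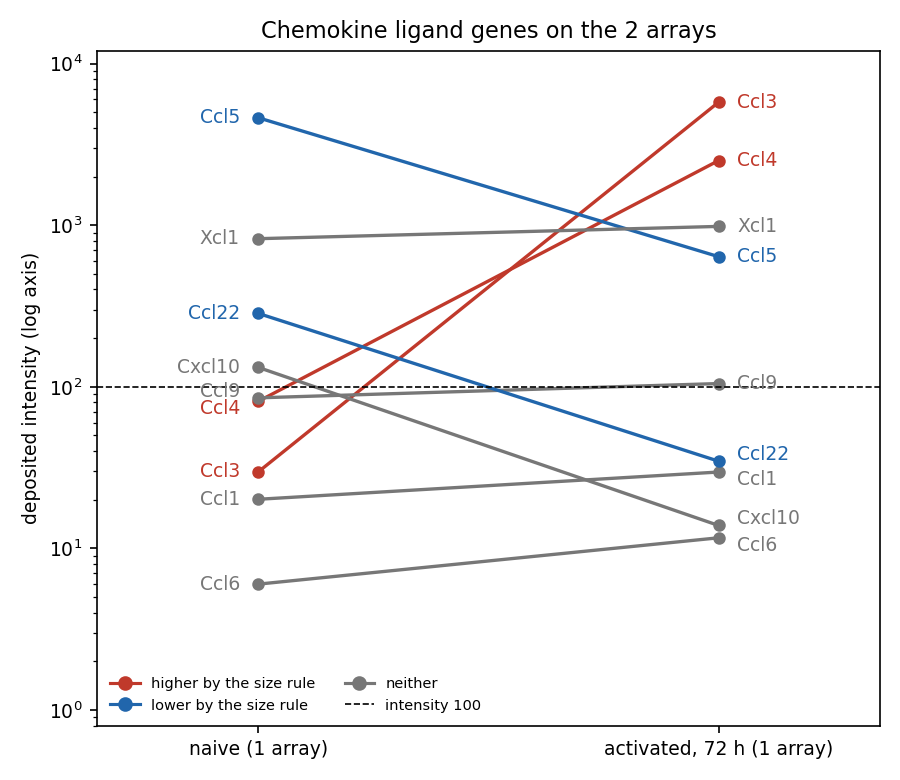
Deposited intensity (log axis) of the brightest probe set of each of the 9 chemokine ligand genes on the naive and the activated array, 1 array each, joined by a line per gene. Ccl3 and Ccl4 cross the dashed line at 100 upward to 5768 and 2511, Ccl5 goes from 4619 to 638, and Xcl1 stays at 825 and 982.

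Among the inflammatory CC chemokines, Ccl3 (macrophage inflammatory protein 1 alpha) had an intensity of 29.8 in naive cells and 5768 in activated cells. It lay under 100 in naive cells, so its fold is a lower bound, at least 57.7-fold higher in activated cells, with a log2 ratio of 5.85. Ccl4 (macrophage inflammatory protein 1 beta) was at 81.3 and 2511, at least 25.1-fold higher and 4.65 on the log2 scale. Both genes were thus under 100 before activation and well above it after. Ccl5 (RANTES), another inflammatory CC chemokine, went the other way. It read 4619 before and 638 after activation, 7.24-fold lower and -2.86 on the log2 scale. It stayed above 100 on both arrays, so this fold is not a bound. Of 9842 genes that reached 100 on at least 1 array, Ccl3 had rank 1 from the highest ratio, Ccl4 rank 6, and Ccl5 rank 46 from the lowest.

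These 3 genes lie in a single cluster on mouse chromosome 11. In the RefSeq gene order of GRCm38.p6, Ccl5, Ccl9, Ccl6, Ccl3 and Ccl4 follow each other with 0 protein-coding genes between them, while Ccl1 lies apart, 25 protein-coding genes before Ccl5. Along this run the calls were lower for Ccl5, none for Ccl9 and Ccl6, and higher for Ccl3 and Ccl4. The 2 higher members are therefore adjacent, and the lower member stands at the other end of the run. Xcl1, Cxcl10 and Ccl22 lie on chromosomes 1, 5 and 8.

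Ccl9 and Ccl6, the middle genes of that run, gave little signal. For Ccl9 (macrophage inflammatory protein 1 gamma) the probe sets read 85.4 and 59.8 in naive cells and 104.7 and 59.2 in activated cells. Only the first of them reached 100, in activated cells, with a log2 ratio of 0.07. For Ccl6 the probe sets read 4.48 and 6.01 in naive cells and 1 and 11.6 in activated cells, near the lowest deposited intensity of 1. Ccl1, a ligand of CCR8 made by activated T cells, was at 20.1 and 29.7. No ratio was formed for Ccl6 or Ccl1, since values this low were not compared.

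Xcl1 (lymphotactin), the only C chemokine among the members, read 825 in naive cells and 982 in activated cells. The log2 ratio of 0.25 did not pass the size rule. Unlike Ccl3 and Ccl4, it was well above 100 before activation.

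Ccl22, a ligand of CCR4, read 284 before and 34.6 after activation, at least 2.84-fold lower with a log2 ratio of -1.51. Cxcl10, an interferon-induced ligand of CXCR3, was at 132 and 13.9. Its ratio of at least 1.32-fold lower, -0.40 on the log2 scale, did not pass the rule with values raised to 100, and it did pass with values raised to 50, at -1.40. Both genes were above 100 in naive cells only.

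**Figure D2:**
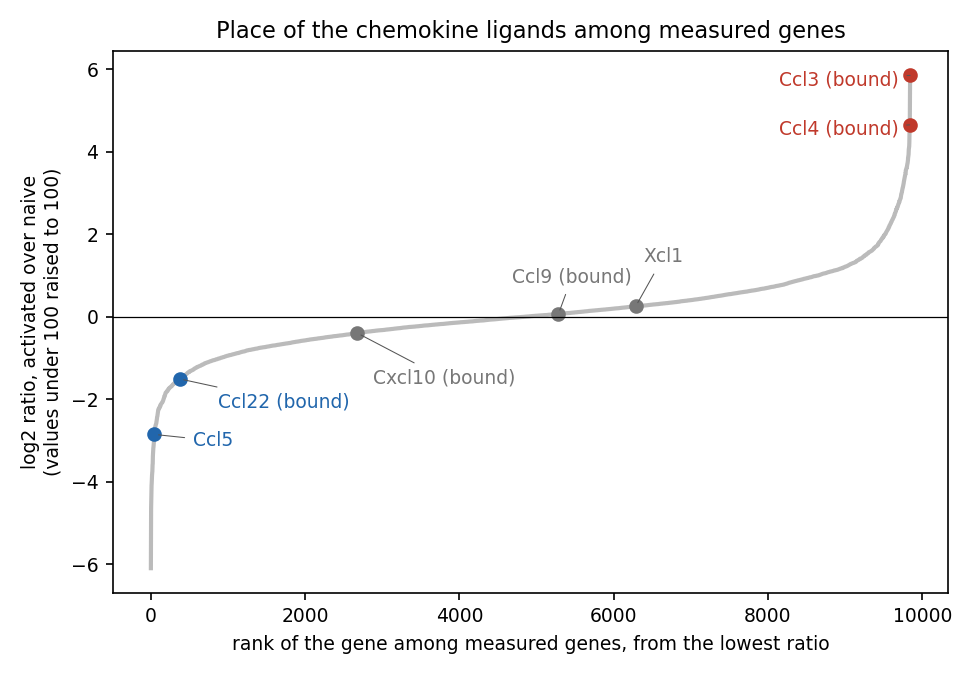
Log2 ratio of activated over naive cells for the 9842 measured genes in order from the lowest (grey line), with the 7 measured chemokine ligands as points, red for higher, blue for lower and grey for neither by the size rule. Ccl3 and Ccl4 stand at the top end at 5.85 and 4.65, Ccl5 near the bottom at -2.86, and Xcl1, Ccl9 and Cxcl10 along the flat middle; "bound" marks genes under 100 on 1 array.

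In the dendritic, monocyte or macrophage, NK and B cell lists, the called markers were lower in activated cells, except for Batf3. The part of other cells in the chemokine results was not tested. For the counts that follow, 11.1% of all genes were lower and 12.8% higher, and of genes reaching 100, 20.6% and 23.7%. The intensities of 9 dendritic cell markers summed to 7469.6 in naive and 2021.5 in activated cells, with 4 lower and 1 higher. H2-Aa (2007 and 83.0), H2-Eb1 (1392 and 72.9) and Cd74 (3003 and 405), which serve class II antigen presentation and are also made by B cells, were among the lower ones, although the 4 probe sets of H2-Aa spread from -4.33 to -0.03 on the log2 scale. Flt3, Cd209a and Siglech were under 100 on both arrays, and Itgax was at 115 and 27.6. The higher gene, Batf3 (92.4 and 987), is also expressed by T cells. Of 10 monocyte or macrophage markers, summing to 1864 and 712, 5 were lower, among them Mpeg1 (293 and 8.22) and Lyz2 (173 and 21.8), and Adgre1, Cd14, Cd68 and Fcgr3 were under 100 on both. Of 6 NK cell markers, summing to 2667 and 726, 5 were lower, among them Gzma (989 and 232), Eomes (725 and 215) and Klra8 (242 and 29.9), some of which CD8+ T cells also express, and Ncr1 was under 100 on both (54.7 and 27.8). Tyrobp (259.5 and 6.88) counts in both of these lists. Of 7 B cell markers, summing to 6055 and 3424, 3 were lower, and Pax5 and Blk were under 100 on both. Most of both B cell sums came from the brightest probe set of Ighm (4990 and 2968). The 7 measured probe sets of Ighm spread from -4.71 to -0.75 on the log2 scale, with the brightest at -0.75. In the lists for neutrophils, CD4+ T cells, mast cells or basophils and platelets, 0 markers were called. In that order, 7 of 8, 3 of 4, 5 of 5 and 3 of 5 of them were under 100 on both arrays, so most could not be called. In pooled RNA, fewer cells of a type and less RNA per cell cannot be told apart. All 8 CD8+ T cell markers were above 100 on both arrays, among them Cd8a (6020 and 4860.0) and Cd3e (3035 and 2724), and Cd4 was under 100 (45.1 and 50.5). This list too was lower in sum (39743 and 28964), with 3 of 8 called lower, against 20.6% of genes reaching 100, as all 8 did. With so few genes this count is not read as departing from that share. The 3 were Cd8b1 (7725 and 3554, 2.17-fold), Thy1 (4763 and 2751, 1.73-fold) and Cd247 (3036 and 1984, 1.53-fold). The 3 measured probe sets of Cd247 spread from -1.69 to -0.54 on the log2 scale. Cd8a was not called by its brightest probe set, at -0.31, but its 5 probe sets reached down to -1.39.

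**Figure D3:**
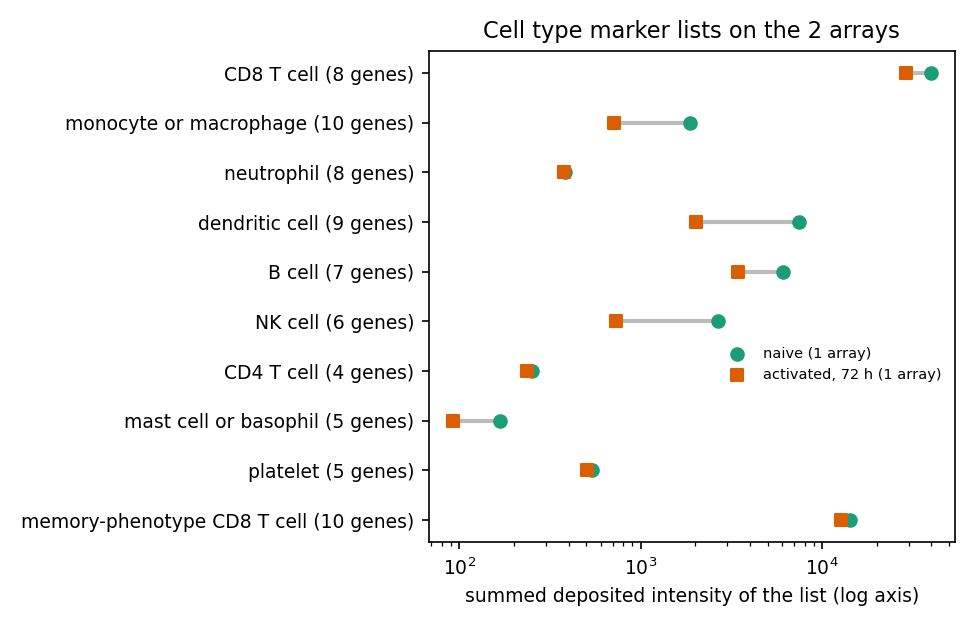
Summed deposited intensity (log axis) of the brightest probe set of each gene in 10 lists of cell type markers, naive array as circles and activated array as squares, with the number of genes in brackets; the memory-phenotype list was written after values were seen. The dendritic, NK and monocyte or macrophage lists are lower on the activated array (7469.6 and 2021.5, 2667 and 726, 1864 and 712). The B cell (6055 and 3424) and CD8 T cell (39743 and 28964) lists are lower there too. The neutrophil sums are close (383 and 377), with 7 of those 8 genes under 100 on both arrays.

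Other chemokine ligands were mostly not seen. Of 25 with a probe set of their own, 20 were under 100 on both arrays, among them Ccl2 and Ccl17 and the interferon-induced ligands Cxcl9 (27.6 and 46.6) and Cxcl11 (91.6 and 75.8), which share CXCR3 with Cxcl10. Over the whole series, 9842 of 18193 genes reached 100 on either array. By the size rule 0 of the 25 ligands were higher and 1 was lower, against 12.8% and 11.1% of all genes. The lower gene was Cxcl16, the transmembrane ligand of CXCR6, at 281 and 143 (1.97-fold lower). Cx3cl1, a membrane-bound ligand, was at 372 and 316, the platelet chemokine Pf4 at 209 and 190.2, Cxcl1 at 171 and 187, and the B cell attractant Cxcl13 at 142 and 122, none past the rule. Ccl19 and Ccl21a were not analysed here.

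The receptors of the members were low except for Cxcr3. Of 6 receptor genes analysed, 1 was lower and 0 were higher, against 11.1% and 12.8% of all genes. Cxcr3, the receptor for CXCL10 that guides effector T cells to inflamed tissue, was at 1475 and 970.1 (1.52-fold lower). Ccr4, the receptor for CCL22, was at 19.4 and 129 and did not pass. Ccr1 (55.1 and 60.8), Ccr3 (1.62 and 8.95), Ccr8 (33.2 and 20.1) and Xcr1 (23.9 and 13.4) were under 100 on both arrays. Of 5 atypical receptors, which bind chemokines without G protein signalling, 0 were called in either direction, against the same shares of all genes. Ackr1 was at 137 and 165 and Ackr2, a scavenger of CC chemokines, at 120.0 and 135, while Ackr3 (6.16 and 14.6), Ackr4 (80.9 and 37.4) and Ccrl2 (35.1 and 77.1) were under 100.

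Genes for signalling downstream of chemokine receptors were lower for 7 and higher for 3 of 16 analysed, with a median log2 ratio of -0.56. As 15 of the 16 reached 100, the like background is that of genes reaching 100, 20.6% lower and 23.7% higher with a median of 0.01. The higher count was 0 with quantile scaling. Dock2, the activator of Rac in lymphocyte migration, was at 2568 and 1079 (2.38-fold lower), the haematopoietic GTPase gene Rhoh at 2063 and 924 (2.23-fold lower), and Pik3r5, a regulatory subunit of phosphoinositide 3-kinase gamma, at 822 and 276 (2.98-fold lower). Gng2, a G protein gamma subunit, read 279 and 809 in its brightest probe set (2.89-fold higher), and log2 ratios of its 4 probe sets spread from -1.07 to 1.53. Gnai3 (2182 and 2081) and Pik3cg (304 and 315) lay nearest to 0. Grk2 was not analysed here.

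Transcription factors known to act on chemokine genes went both ways, with 10 of 21 lower and 5 higher, against 20.6% and 23.7% of genes reaching 100, as all 21 did. Their median was -0.53, and 5 were lower with a fold minimum of 2. Bhlhe40 (59.8 and 1726, at least 17.3-fold) and Irf4 (72.4 and 1469, at least 14.7-fold by its brightest probe set) were higher. The 2 probe sets of Irf4 were at log2 ratios of 2.36 and 3.88. Fos, a subunit of AP-1, was at 528 and 87.3 (at least 5.28-fold lower), and Irf7, which drives interferon-induced genes, at 1415 and 338 (4.19-fold lower). Runx3 (1095 and 1076) and Junb (2032 and 1911) lay nearest to 0. Several further factors were picked after their values were seen. Klf13, known as a regulator of Ccl5 transcription in T cells, was at 2396 and 927 (2.58-fold lower), and Irf1, which acts on interferon-induced promoters, at 3436 and 977 (3.52-fold lower). Rel was at 75.1 and 246 (at least 2.46-fold higher) and Tbx21 (T-bet) at 333 and 764 (2.296-fold higher). Nfatc1 was lower by its brightest probe set (1340.3 and 759), but log2 ratios of its 4 measured probe sets spread from -0.82 to 1.51. Nfkb1 was not analysed here.

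Factors that bind the AU-rich or stem-loop elements of short-lived messages, a class that includes chemokine transcripts, were lower for 5 of 10 and higher for 0, against 20.6% and 23.7% of genes reaching 100, as all 10 did. Their median was -0.49. With the median of each gene's probe sets 3 were lower and 1 higher, and with a fold minimum of 2 there were 2 lower. The 3 tristetraprolin family genes, which promote decay of such messages, were all lower by their brightest probe sets: Zfp36 at 1137 and 299 (3.80-fold), Zfp36l2 at 2612 and 1301 (2.01-fold) and Zfp36l1 at 2855 and 1503 (1.90-fold). The 2 measured probe sets of Zfp36l2 spread from -1.005 to -0.384 on the log2 scale. Rc3h2, a roquin gene, was at 844 and 510 (1.66-fold lower) by its brightest probe set, and its measured probe sets reached up to -0.03. Rc3h1, named after its values were seen, was the other lower gene (928 and 593). Khsrp (929 and 1036) and Hnrnpd (3172 and 3624) lay nearest to 0 by their brightest probe sets. The 3 probe sets of Khsrp spread from 0.16 to 0.96 on the log2 scale.

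Among 9 genes for binding or processing of chemokines, which had a median log2 ratio of -0.12, 3 passed as higher and 2 as lower, against 23.7% and 20.6% of genes reaching 100, as all 9 did. Srgn, the granule proteoglycan serglycin that holds basic proteins, was named after its values were seen and was higher (5172 and 7374, 1.43-fold). Tpst1 and Tpst2, which sulphate tyrosines in chemokine receptors, went in opposite directions, with Tpst1 3.32-fold higher (154 and 513) and Tpst2 2.04-fold lower (1680.3 and 822). Dpp4 (CD26), a peptidase that trims CXCL10, CCL22 and CCL5, was at 1183 and 643 (1.84-fold lower), and its 4 probe sets were all below 0, from -1.88 to -0.88. The syndecan gene Sdc1 was at 63.5 and 301 (at least 3.01-fold higher) by its brightest probe set. Its 2 measured probe sets were at log2 ratios of 0.49 and 1.59. Ext2 (344 and 373) and Sdc4 (126 and 116) lay nearest to 0, and Ndst1 was not analysed here.

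Cytokine genes often released with chemokines also divided. Of 9, 3 were higher and 2 lower, against 12.8% and 11.1% of all genes, and Csf2, Il2 and Il3 were under 100 on both arrays. Of genes reaching 100, as 6 of the 9 did, 23.7% were higher and 20.6% lower. Ifng, encoding interferon gamma, was at 72.8 and 3282 (at least 32.8-fold higher), Fasl, the death ligand, at 100.5 and 710.0 (7.07-fold higher) and Lta at 153 and 460 (3.01-fold higher). Ltb, which pairs with Lta in the lymphotoxin heterotrimer, was lower (6337 and 1929, 3.28-fold), as was the death ligand gene Tnfsf10, named after its values were seen (303 and 118, 2.56-fold). Tnf was at 120.4 and 160.4 and did not pass.

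**Figure D4:**
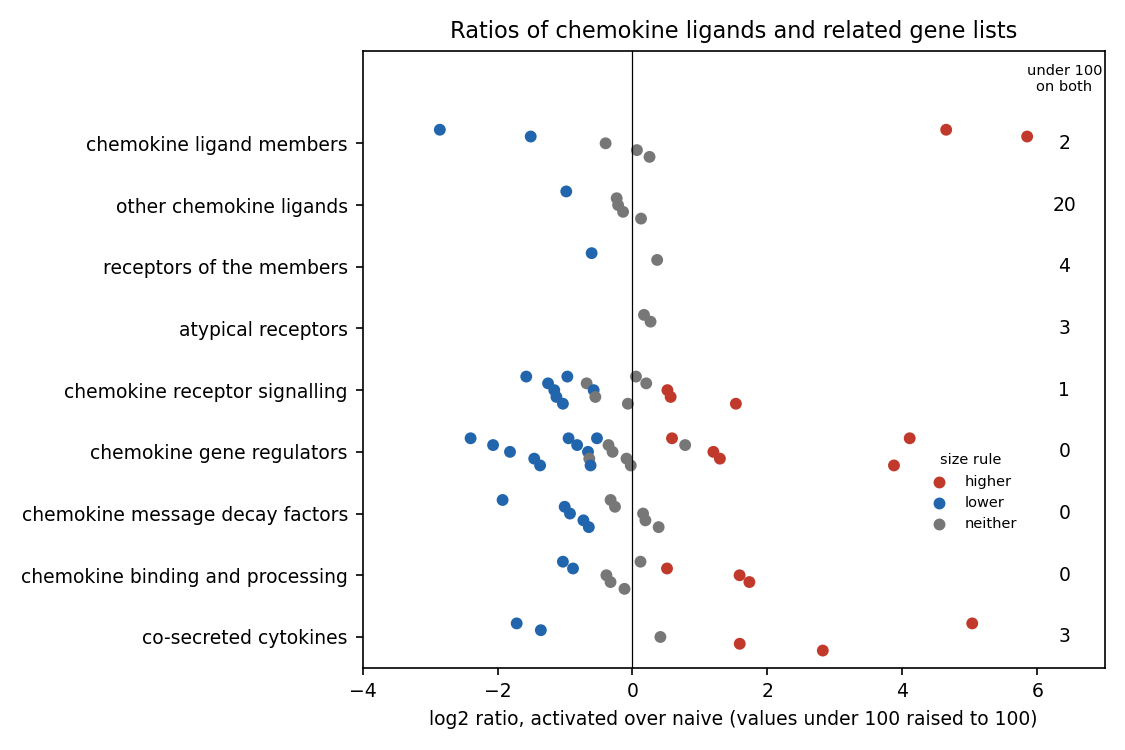
Log2 ratio of activated over naive cells for each measured gene of the chemokine ligands and 8 related lists, 1 point per gene, coloured by the size rule, with the number of genes under 100 on both arrays at the right. The chemokine ligands span -2.86 to 5.85, while the message decay factors hold 5 lower and 0 higher genes.

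By log2 ratio, the genes nearest to Ccl3 among 5104 genes reaching 500 on either array were Nrn1 (5.49, a bound), Gzmb (5.27) and Ifng (5.04, a bound). Those nearest to Ccl4 were the metallothioneins Mt1 (4.67) and Mt2 (4.60, a bound) and the mitotic gene Ube2c (4.52). Those nearest to Ccl5 were Abca1 (-2.85), Ifit1 (-2.85) and Lypd6b (-2.84), all 3 bounds. Likeness over 2 arrays is a single ratio, and many genes share a ratio by that measure.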

How the data were processed

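The authors deposited 1 linear expression intensity per probe set and array. Per the series' design text, the submitters derived it in dChip from differences of perfect-match and mismatch probes, with invariant set normalization between arrays. Present calls were made with GCOS 1.3, per the design text, and are not used here. No dChip version is stated there. The study's rule combined present calls with a 90% confidence bound on a fold of 1.4 and an intensity difference of 100. The size rule keeps the fold and the difference only, and raising intensities to 100 shrinks the ratio of dim genes.

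Control probe sets (64 of 45101) were removed. Symbols came from the platform annotation, and Entrez identifiers of the 11 member probe sets matched RefSeq with 0 symbols changed. Each gene took the values of its brightest probe set, by the mean of the arrays, and a gene was measured when that probe set reached 100 on either array. The members and lists were chosen with earlier results of these data known. The text names all members and their receptors, other ligands reaching 100, and in each related list up to 4 called genes with the largest ratios and up to 2 nearest to 0. Genes outside this rule are marked in the text as named after their values were seen, and markers named are examples. The scripts (Python 3.11.15, pandas 2.3.3, statsmodels 0.14.6) were tested on simulated data. Alternatives were other fold, difference and floor values, median, quantile and loess scaling, and other choices of probe set. Intensities give no counting error, and precision is limited by having 1 array per group.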

Additional observations from a re-analysis of the deposited data

How the results depend on the processing

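The counts of calls and the members' ratios were recomputed under 10 alternatives, and medians of lists were not. Over all 10, Ccl3 and Ccl4 were called higher, at log2 ratios of 4.85 to 6.85 and of 3.65 to 4.95, and Ccl5 (-3.09 to -2.86) and Ccl22 (-2.51 to -0.51) lower. The ends of the ranges for Ccl3 and Ccl22 come from raising values to 50 or 200 in place of 100, which by construction moves a bound. Xcl1 (0.17 to 0.25), Ccl9, Ccl1 and Ccl6 were never called, and Cxcl10 was called lower with a floor of 50 only. With a fold minimum of 2, the lower ligand outside the 9 (Cxcl16) and the lower receptor (Cxcr3) were no longer called, leaving 0 and 0, and over all genes 1193 were higher and 904 lower in place of 2334 and 2027. With a difference minimum of 200, 0 other ligands were lower. With a floor of 50, 1 receptor was higher. For the related lists, recomputed under settings added after seeing the data, a fold minimum of 2 left 1 higher signalling gene, 5 lower regulators, 2 lower decay factors, 1 lower binding gene, lower markers of 1 (CD8 T cell), 2 (monocyte or macrophage) and 1 (B cell), and 1 higher memory-phenotype gene. Higher signalling genes numbered 0 with quantile scaling, 1 with loess scaling and 0 with the median of probe sets. Decay factors had 3 lower and 1 higher with the median of probe sets, and 1 higher without possibly cross-hybridising probe sets. With quantile scaling 6 CD8 T cell markers were lower. The cause of these shifts with scaling or probe set was not tested. A difference minimum of 200 left 1 lower cytokine and 3 lower monocyte or macrophage markers, and a floor of 200 left 2 lower monocyte or macrophage and 3 lower NK cell markers. Scaling moved the median log2 ratio of probe sets above 100 from 0.01 to between -0.04 and 0.00. No paired analysis was possible because each group has 1 array, and for the same reason no replicate could be left out.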

Other observations

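Genes of memory-phenotype CD8+ T cells, a list written after the values of the chemokine ligands were seen, were divided as the ligands were. Of 10 analysed, 3 were higher in activated cells, 4 lower and 1 measured gene was neither, against 12.8% and 11.1% of all genes. Of genes reaching 100, as 8 of the 10 did, 23.7% were higher and 20.6% lower. The lower genes were Cxcr6, a chemokine receptor of tissue-resident and innate-like T cells (2467 and 537, 4.60-fold), Gzmm, a granzyme (473 and 48.5, at least 4.73-fold), the transcription factor gene Eomes (725 and 215, 3.37-fold) and the lectin-like receptor gene Klrd1 (4015 and 2027, 1.98-fold). The higher genes were the activating receptor gene Klrk1 (469 and 2397, 5.11-fold), the adhesion receptor gene Cd44 (1108 and 2036, 1.84-fold) and Il2rb, a chain of the interleukin-2 and interleukin-15 receptors (826 and 1354, 1.64-fold). Nkg7 was at 3952 and 4060 and did not pass, and Klrg1 and Gzmk were under 100 on both arrays. Eomes counts in the NK cell list as well. The relation of these memory-phenotype genes to Ccl5 was not tested.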
